A study of Homo sapiens with 9 samples.

Results

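The NF-kB genes of Raji, a human Burkitt lymphoma B-cell line, were examined in RNA libraries from cells treated with hydroxyurea (HU), with thymidine and nocodazole (Thy-Noc) or with the solvent DMSO. They were chosen by name and role, with earlier results of these data known. The list holds the Rel subunits, their inhibitors, the adaptors and kinases upstream, the ligands that start the pathway, and genes that it switches on. The rule named 40 genes, of which 37 are listed among the 15436 genes of the deposited table and 34 passed a filter on low values, which 11346 genes of the table passed. RELB, ICAM1 and GADD45B were listed but too low to test, and TNFAIP2, IER3 and MARCKS were not analysed here. There were 3 HU libraries, 3 Thy-Noc libraries and 3 DMSO libraries. All 9 came from the same cell line, with no genetic change named, and were prepared with a stranded mRNA kit. The sources used here give neither the doses nor the times of treatment. HU blocks ribonucleotide reductase, which depletes nucleotides and stalls DNA replication, while thymidine followed by nocodazole, a microtubule poison, is used to collect cells in mitosis. The labels do not say whether libraries of a group came from separate cultures, so the p-values measure the spread between these libraries, which may be technical.

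NF-kB is a dimer of Rel family proteins that IkB proteins hold in the cytoplasm. Signals from receptors of the tumour necrosis factor family, Toll-like receptors or the B-cell receptor pass through TRAF adaptors or a complex that holds BCL10 and MALT1 to the IkB kinase, which marks IkB for destruction and frees the dimer. A second, slower branch runs through the kinase NIK, the product of MAP3K14, and the processing of the NFKB2 product. Freed dimers switch on genes for cytokines, surface molecules and survival factors, and also for their own inhibitors, among them NFKBIA, NFKBIE and TNFAIP3. In germinal-centre B cells the pathway answers CD40, and in cells that carry Epstein-Barr virus, as Raji does, the viral membrane protein LMP1 can drive it through TRAF proteins.

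Rel dimers bind short kappa-B sites, and such sites are found in the promoters of known target genes. RefSeq promoters on GRCh38.p14, each of 300 bases, were matched for 36 of the 40 genes; NFKBIE, CD40, RELB and IER3 had no match. The motif searched, on both strands, was GGG followed by any 2 bases and then by 1 of 4 endings: TTTCC in the first form, TTCCC in the second form, TCTCC in the third form and TCCCC in the last. No stretch can match more than 1 form on the same strand. At least 1 match was found in 13 of the 36 promoters, which is 36.1%, against 2944 of all 35116 RefSeq promoters of that length, which is 8.38%. The list includes known targets by choice, so a share above that of all promoters could be foreseen and says nothing of the treatments. Of the 6 genes that rose in HU-treated cells, 4 had a promoter and 2 of these, TNF and EBI3, held a match. Their promoters are shown with that of NFKBIA, the textbook feedback target, and the capitals mark the match. The TNF sequence is chr6:31575315-31575614 on the plus strand, that of EBI3 is chr19:4229273-4229572 on the plus strand and that of NFKBIA is chr14:35404700-35404999 on the minus strand.
TNF: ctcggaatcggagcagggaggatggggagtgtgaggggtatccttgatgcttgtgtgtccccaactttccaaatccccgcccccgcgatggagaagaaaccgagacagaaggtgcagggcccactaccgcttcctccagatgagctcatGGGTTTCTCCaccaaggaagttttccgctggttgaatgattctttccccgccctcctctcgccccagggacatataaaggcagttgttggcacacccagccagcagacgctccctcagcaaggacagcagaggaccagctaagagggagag
EBI3: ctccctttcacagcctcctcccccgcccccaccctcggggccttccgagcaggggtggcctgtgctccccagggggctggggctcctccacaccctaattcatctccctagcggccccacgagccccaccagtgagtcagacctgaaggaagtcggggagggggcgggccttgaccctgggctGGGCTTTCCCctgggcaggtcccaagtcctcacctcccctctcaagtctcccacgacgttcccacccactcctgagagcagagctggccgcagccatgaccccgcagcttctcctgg
NFKBIA: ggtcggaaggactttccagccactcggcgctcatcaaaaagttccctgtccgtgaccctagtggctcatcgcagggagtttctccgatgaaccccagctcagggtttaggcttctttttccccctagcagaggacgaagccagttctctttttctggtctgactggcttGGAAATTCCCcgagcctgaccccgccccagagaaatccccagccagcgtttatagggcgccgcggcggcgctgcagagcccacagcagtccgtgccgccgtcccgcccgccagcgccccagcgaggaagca
Counted from the start of transcription, the match in TNF lies at -101 to -92 and ends in TCTCC on the gene's own strand. That in EBI3 lies at -67 to -58 and ends in TTCCC on the same strand. The match in NFKBIA lies at -81 to -72 and ends in TTTCC when read on the opposite strand. The promoters of TRAF1 and IL2RG, which also rose, held none of these letters in the window. A match describes a sequence and does not show that a factor binds there.

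The libraries held 74940755 to 110485145 expected counts. How a deposited value was made from the transcripts of its gene is not stated, so it may stand for part of the gene and not for all its reads, and each level and fold change below carries that doubt. Levels are given as counts per 1000000 (CPM) after scaling between libraries, and they were not compared between genes because they are not divided by gene length. The 6 B-cell markers MS4A1, CD79A, CD79B, PAX5, CD22 and CD74 were listed and tested, and none changed in any comparison in edgeR. At an unadjusted p under 0.05, 2 of 6 were higher in HU than in DMSO libraries, against 11.1% of all genes. In each of the other comparisons 0 of 6 were higher, against 2.45% of all genes in Thy-Noc against DMSO and 10.1% in HU against Thy-Noc. The summed level of the 6 markers ran from 1616 to 2297 CPM in HU libraries, from 1593 to 2579 CPM in Thy-Noc libraries and from 1799 to 2244 CPM in DMSO libraries. None of 6 T-cell markers was listed, and none of the 4 plasma-cell markers tested of 5 changed in edgeR. Of these 4, 1 was higher in HU than in DMSO libraries at an unadjusted p under 0.05, against 11.1% of all genes. It was IRF4, at 2.28, 2.18 and 1.92 CPM in HU libraries, 0.342, 1.88 and 0.497 CPM in Thy-Noc libraries and 0.596, 0.485 and 0.903 CPM in DMSO libraries. IRF4 would not have passed the filter on low values without HU libraries. Of 7 monocyte and macrophage markers, LYZ and CD68 were listed, and their sum was 1.14 to 2.64 CPM in HU libraries, 0.286 to 0.963 CPM in Thy-Noc libraries and 0.331 to 0.596 CPM in DMSO libraries; neither gene passed the filter. Of 6 fibroblast and epithelial markers, COL1A1 was listed, with 9.02, 8.09 and 13.7 CPM in HU libraries, 1.97, 5.19 and 3.15 CPM in Thy-Noc libraries and 3.88, 1.30 and 2.66 CPM in DMSO libraries. Mitochondrial transcripts made up 1.82%, 1.54% and 1.45% of counts in HU libraries, 1.54%, 1.03% and 1.28% in Thy-Noc libraries and 1.0%, 1.08% and 1.02% in DMSO libraries. The mitochondrial share, COL1A1, IRF4 and the sum of LYZ and CD68 were higher in every HU library than in every DMSO library. Their part in the results below was not tested.

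HU-treated and DMSO-treated Raji cells were compared first. Of the 34 tested genes, 6 rose in the edgeR quasi-likelihood test at a Benjamini-Hochberg adjusted p under 0.05: TNF, NFKBIE, TRAF1, EBI3, CD40 and IL2RG. None fell. Their fold changes of HU over DMSO ran from 1.65 for IL2RG to 4.36 for TNF. Over all 11346 tested genes, 3.56% were called in the same comparison, 2% higher and 1.56% lower. At an unadjusted p under 0.05, 13 of the 34 were higher and 0 lower, against 21.2% of all genes, 11.1% higher and 10.1% lower. In 16 of the 34 every HU library lay above every DMSO library, against 15.5% of all genes, and in 1, TRAF2, every HU library lay below, against 15.3%. The median log2 fold change was 0.69 over the 34 genes and 0.02 over all tested genes, with 23 of the 34 above 0. BCL3 and TNFAIP3 would not have passed the filter on low values without HU libraries: 2 HU and 1 DMSO library reached it for BCL3, and 2 HU and 1 Thy-Noc library for TNFAIP3. Over the other 32 genes, 15 lay wholly above and 1 wholly below. TNFAIP3 is among the 13 genes higher at an unadjusted p under 0.05, and the median of 0.69 includes both BCL3 and TNFAIP3. RNA from whole cultures does not tell a larger share of expressing cells from more RNA per cell. The number of genes that rose was 0 to 4 when any 1 library was left out. It was 1, NFKBIE, when only the 6 HU and DMSO libraries were fitted, 4 with no filter on low values, which ended the calls of CD40 and IL2RG, and 5 with median-of-ratios scaling, which ended that of CD40.

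**Figure D1:**
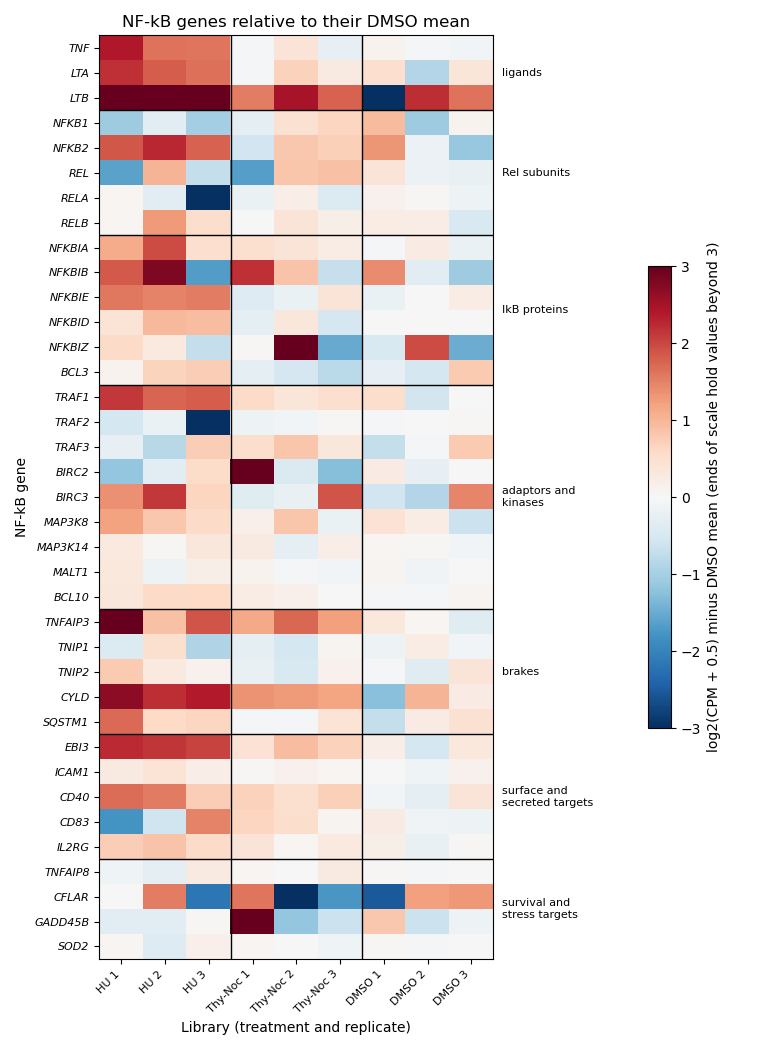
Each cell is log2(CPM + 0.5) of 1 listed NF-kB gene in 1 library minus that gene's mean over the 3 DMSO libraries; genes run down in order of role and libraries run across as HU, Thy-Noc and DMSO. TNF, LTA, TRAF1, CYLD, EBI3 and CD40 are red in all 3 HU libraries, and single cells stand apart from their neighbours in LTB, RELA, TRAF2, BIRC2 and GADD45B.

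Of the 3 ligands, TNF rose in HU libraries. TNF, the cytokine that gives the receptor family its name, lies at chr6:31575567-31578336 on the plus strand. It was at 14.9, 8.49 and 8.37 CPM in HU libraries, 2.36, 3.35 and 1.96 CPM in Thy-Noc libraries and 2.66, 2.37 and 2.25 CPM in DMSO libraries. Every HU library was above every other library, and the first of them was the highest. The log2 fold change of HU over DMSO was 2.12 ± 0.32 (SE; adjusted p = 0.0245, edgeR). TNF was no longer called without HU replicate 1, HU replicate 3 or any DMSO replicate, with adjusted p between 0.0655 and 0.0932 and log2 fold changes of 1.80 to 2.27 over all 9 such fits. LTA and LTB, which code for the lymphotoxin chains that signal through TNF and lymphotoxin-beta receptors, flank TNF on chromosome 6. The 3 genes span 10469 bases, chr6:31572054-31582522, with 1242 bases between LTA and TNF and 2188 between TNF and LTB. LTA was at 23.1, 17.9 and 15.8 CPM in HU libraries, 4.62, 7.88 and 5.79 CPM in Thy-Noc libraries and 6.92, 2.32 and 6.22 CPM in DMSO libraries. Its HU libraries were also above all others, and the log2 fold change of HU over DMSO was 1.88 ± 0.44 (SE), but it missed the threshold in edgeR (adjusted p = 0.0643), while limma and DESeq2 called it. LTB was at 96.2, 98.2 and 70.8 CPM in HU libraries, 25.1, 48.5 and 29.2 CPM in Thy-Noc libraries and 0.114, 40.2 and 26.5 CPM in DMSO libraries. The HU libraries again lay above all others, while DMSO replicate 1 stood far below the rest of its group at a count of 9, and the test gave an adjusted p of 0.471 in edgeR.

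The Rel subunits themselves gave no call in edgeR, limma or DESeq2. Of the 4 tested, 1, NFKB2, was higher in HU than in DMSO libraries at an unadjusted p under 0.05, against 11.1% of all genes. RELA, NFKB1, NFKB2 and REL code for the DNA-binding partners; NFKB1 and NFKB2 are made as precursors that also act as inhibitors. NFKB2 was at 241, 320.0 and 227 CPM in HU libraries, 44.1, 116 and 109 CPM in Thy-Noc libraries and 167, 58.1 and 29.6 CPM in DMSO libraries. Every HU library was above every other, but the DMSO libraries spread widely, and the log2 fold change of HU over DMSO was 1.63 ± 0.65 (SE; adjusted p = 0.209, edgeR). NFKB1 was at 49.2, 81.3 and 50.6 CPM in HU libraries, 84.8, 142 and 162 CPM in Thy-Noc libraries and 201, 49.5 and 111 CPM in DMSO libraries. HU and DMSO libraries overlapped, while every HU library was below every Thy-Noc library; the log2 fold change of HU over DMSO was -1.0 ± 0.51 (SE; adjusted p = 0.319, edgeR). RELA was at 327, 254 and 0.114 CPM in HU libraries, 274, 363 and 239.6 CPM in Thy-Noc libraries and 344, 326 and 283 CPM in DMSO libraries. HU replicate 3, with a count of 12, stood alone, and the other 8 libraries overlapped between groups. REL, the subunit most used in activated B cells, was at 0.139, 3.46 and 0.677 CPM in HU libraries, 0.123, 2.95 and 3.07 CPM in Thy-Noc libraries and 2.05, 1.23 and 1.16 CPM in DMSO libraries. The groups overlapped, and the log2 fold change of HU over DMSO was -0.06 ± 1.28 (SE), an error too wide to set a direction. RELB, the partner of the processed NFKB2 product, was at 0.266, 1.28 and 0.563 CPM in HU libraries, 0.232, 0.467 and 0.331 CPM in Thy-Noc libraries and 0.368, 0.364 and 0.0382 CPM in DMSO libraries, and was not tested.

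Among the 6 IkB genes, 1 rose. NFKBIE codes for IkB-epsilon, an inhibitor that holds Rel dimers in the cytoplasm and is itself induced by them; it lies at chr6:44258166-44265788 on the minus strand. It was at 113, 105 and 109 CPM in HU libraries, 28.6, 32.7 and 49.2 CPM in Thy-Noc libraries and 32.3, 36.9 and 43.7 CPM in DMSO libraries. The HU libraries were close together and above all others. Against DMSO, the log2 fold change in HU was 1.54 ± 0.22 (SE; adjusted p = 0.0224, edgeR), and the call ended without HU replicate 1, HU replicate 3 or any DMSO replicate, with adjusted p of 0.0651 to 0.0848. NFKBIA, the classic IkB and early feedback target, was at 160.2, 287 and 104 CPM in HU libraries, 103, 95.2 and 84.9 CPM in Thy-Noc libraries and 70.5, 86.8 and 64.2 CPM in DMSO libraries. The HU libraries lay above the others but spread widely, with the third just above the highest Thy-Noc library, and the log2 fold change of HU over DMSO was 1.31 ± 0.35 (SE; adjusted p = 0.0884, edgeR). NFKBID, a nuclear IkB protein, was at 14.8, 22.2 and 21.4 CPM in HU libraries, 8.99, 14.1 and 7.61 CPM in Thy-Noc libraries and 10.9, 10.9 and 11.2 CPM in DMSO libraries. All HU libraries were above the rest, with a log2 fold change over DMSO of 0.82 ± 0.27 (SE; adjusted p = 0.145, edgeR). BCL3, a nuclear IkB that works with dimers of the smaller subunits, was low, at 0.633, 1.18 and 1.27 CPM in HU libraries, 0.369, 0.247 and 0.104 CPM in Thy-Noc libraries and 0.393, 0.233 and 1.32 CPM in DMSO libraries, with HU and DMSO libraries overlapping. NFKBIB and NFKBIZ, a cytoplasmic and a nuclear IkB, varied so much inside groups that no order of groups could be read; NFKBIB ran from 0.877 to 30.3 CPM in HU libraries and from 1.59 to 11.3 CPM in DMSO libraries.

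Of the 9 adaptor and kinase genes, TRAF1 rose. TRAF1 is an adaptor of TNF-family receptors that is itself a target of the pathway, at chr9:120902393-120929173 on the minus strand. It was at 226, 175 and 182 CPM in HU libraries, 77.6, 66.4 and 73.0 CPM in Thy-Noc libraries and 74.6, 35.2 and 52.3 CPM in DMSO libraries. Every HU library was above every other library, and Thy-Noc and DMSO libraries overlapped. HU over DMSO gave a log2 fold change of 1.85 ± 0.27 (SE; adjusted p = 0.0224, edgeR), and the call ended without HU replicate 1, HU replicate 3 or DMSO replicate 3, with adjusted p of 0.0749 to 0.0866. BCL10, which joins MALT1 below the B-cell receptor, was at 19.2, 22.7 and 22.9 CPM in HU libraries, 17.6, 16.7 and 15.2 CPM in Thy-Noc libraries and 14.6, 14.8 and 16 CPM in DMSO libraries. Its HU libraries lay above all others by a small step, a log2 fold change over DMSO of 0.52 ± 0.14 (SE; adjusted p = 0.0879, edgeR). MALT1, the protease of that complex, was at 84.1, 60.6 and 76.6 CPM in HU libraries, 72.5, 66.1 and 63.1 CPM in Thy-Noc libraries and 71.2, 63.0 and 68.2 CPM in DMSO libraries. MAP3K14, which codes for NIK, was at 121, 101 and 127 CPM in HU libraries, 121, 80.9 and 115 CPM in Thy-Noc libraries and 104, 101 and 93.7 CPM in DMSO libraries. Groups overlapped in both genes, and both were measured tightly, with log2 fold changes of HU over DMSO of 0.13 ± 0.14 for MALT1 and 0.23 ± 0.17 for MAP3K14 (SE). MAP3K8, a kinase bound by the NFKB1 precursor, was at 15.2, 11.3 and 9.58 CPM in HU libraries, 7.01, 11.7 and 5.47 CPM in Thy-Noc libraries and 8.67, 7.42 and 3.83 CPM in DMSO libraries, with HU libraries above DMSO libraries and overlapping Thy-Noc libraries. BIRC3, a ubiquitin ligase and target gene, was at 30.9, 52.1 and 18.5 CPM in HU libraries, 8.91, 9.95 and 44.1 CPM in Thy-Noc libraries and 7.58, 6.08 and 33.0 CPM in DMSO libraries. The third replicate of Thy-Noc and of DMSO stood apart from the other two of its group, and all groups overlapped. TRAF3, which restrains NIK, overlapped between all groups, at 42.4 to 127 CPM in HU libraries, 97.2 to 135 CPM in Thy-Noc libraries and 46.0 to 132 CPM in DMSO libraries.

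The brakes of the pathway gave no call in edgeR. There 2 of 5, CYLD and TNFAIP3, were higher in HU than in DMSO libraries at an unadjusted p under 0.05, against 11.1% of all genes. DESeq2, which called 2135 of all genes in that comparison, called both, and limma called CYLD. CYLD codes for a deubiquitinase that strips activating chains from adaptors. It was at 129.8, 93.6 and 106 CPM in HU libraries, 51.1, 49.3 and 45.7 CPM in Thy-Noc libraries and 8.06, 40.8 and 23.5 CPM in DMSO libraries. No 2 groups overlapped: HU libraries were highest, Thy-Noc libraries between and DMSO libraries lowest. The log2 fold change of HU over DMSO was 2.19 ± 0.52 (SE), which missed the threshold (adjusted p = 0.0670, edgeR). TNFAIP3, a ubiquitin-editing enzyme and feedback inhibitor, was low, at 5.15, 0.713 and 1.94 CPM in HU libraries, 0.970, 1.67 and 1.07 CPM in Thy-Noc libraries and 0.330, 0.187 and 0.0127 CPM in DMSO libraries. The DMSO libraries were below all others, HU and Thy-Noc libraries overlapped, and HU against DMSO missed the threshold (adjusted p = 0.104, edgeR). TNFAIP3 would not have passed the filter on low values without HU libraries, and DMSO replicate 3 held a count of 1, the lowest value deposited. TNIP1 and TNIP2, adaptors that bind the TNFAIP3 product, overlapped between HU and DMSO libraries: TNIP1 was at 150.2 to 392 CPM in HU libraries, 195 to 297 CPM in Thy-Noc libraries and 256 to 329 CPM in DMSO libraries. TNIP2 was at 57.9 to 91.9 CPM in HU libraries, 38.8 to 57.8 CPM in Thy-Noc libraries and 41.0 to 70.2 CPM in DMSO libraries. SQSTM1, a scaffold and autophagy receptor, was at 16.7, 7.54 and 7.81 CPM in HU libraries, 4.60, 4.56 and 6.60 CPM in Thy-Noc libraries and 2.71, 5.82 and 6.83 CPM in DMSO libraries. Its HU libraries lay above the others, the first of them far above.

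Of the 4 surface and secreted targets tested, 3 rose. EBI3 codes for a subunit of heterodimeric cytokines, was named for its induction by Epstein-Barr virus in B cells, and lies at chr19:4229498-4237531 on the plus strand. It was at 147, 137 and 127 CPM in HU libraries, 41.8, 59.4 and 49.8 CPM in Thy-Noc libraries and 35.4, 21.4 and 38.7 CPM in DMSO libraries. No 2 groups overlapped, with Thy-Noc libraries just above DMSO libraries and HU libraries far above both. For HU over DMSO the log2 fold change was 2.11 ± 0.25 (SE; adjusted p = 0.0159, edgeR), and the call ended without HU replicate 1, DMSO replicate 1 or DMSO replicate 3, with adjusted p of 0.0514 to 0.0635. CD40, the receptor through which T cells rescue germinal-centre B cells, lies at chr20:46118272-46129863 on the plus strand. It was at 90.1, 82.2 and 46.8 CPM in HU libraries, 45.5, 39.0 and 45.7 CPM in Thy-Noc libraries and 26.1, 22.7 and 36.2 CPM in DMSO libraries. No 2 groups overlapped, but HU replicate 3 stood only just above the highest Thy-Noc library. The log2 fold change of HU over DMSO was 1.37 ± 0.28 (SE; adjusted p = 0.0492, edgeR), and the call ended when any library other than HU replicate 3 was left out, with adjusted p of 0.0696 to 0.155, and also with no filter (0.0644) and with median-of-ratios scaling (0.0508). IL2RG, the gamma chain shared by several interleukin receptors, lies at chrX:71107404-71112108 on the minus strand. It was at 286, 313 and 258 CPM in HU libraries, 225, 178 and 209.5 CPM in Thy-Noc libraries and 196, 147 and 177 CPM in DMSO libraries. The HU libraries were above all others, with a log2 fold change over DMSO of 0.72 ± 0.14 (SE; adjusted p = 0.0464, edgeR) that was not called when any 1 of the 9 libraries was left out (adjusted p 0.0563 to 0.133) or when no filter was used (0.0618). IL2RG overlaps a second annotated gene on the same strand that is also listed, so its counts are uncertain. CD83, a marker of activated B cells and dendritic cells, was at 35.1, 81.2 and 342 CPM in HU libraries, 193, 177 and 129 CPM in Thy-Noc libraries and 146, 114 and 110.2 CPM in DMSO libraries. HU libraries held both its lowest and its highest value. ICAM1, an adhesion molecule and common target in other cell types, was at 0.418, 0.518 and 0.381 CPM in HU libraries, 0.287, 0.337 and 0.300 CPM in Thy-Noc libraries and 0.266, 0.205 and 0.331 CPM in DMSO libraries, and was not tested.

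**Figure D2:**
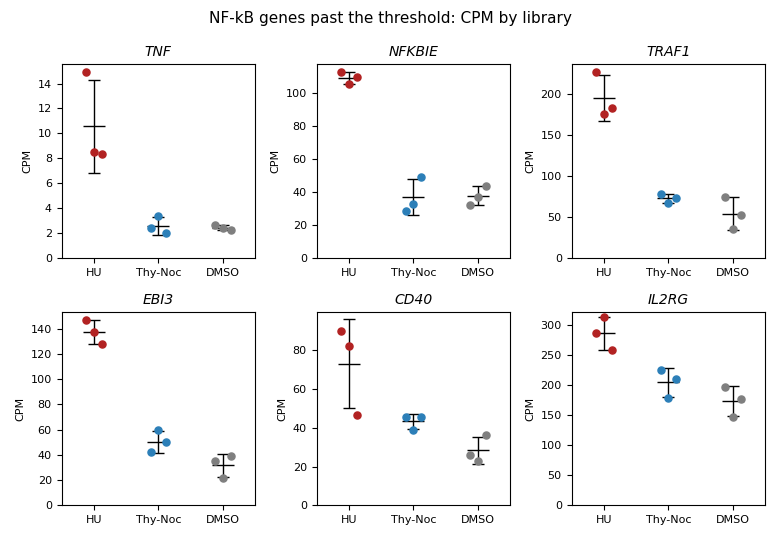
Points are CPM in single libraries of the 6 NF-kB genes that passed an adjusted p of 0.05 in edgeR, with HU, Thy-Noc and DMSO from left to right; the dash is the mean of 3 libraries and the bar its SD, on axes that start at 0. HU libraries lie above all DMSO libraries in each gene, close together in NFKBIE and EBI3 and spread in TNF and CD40.

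None of the 3 survival and stress targets tested changed in edgeR, limma or DESeq2, and 0 passed an unadjusted p of 0.05 in any comparison. SOD2, the mitochondrial superoxide dismutase and a strong target in many tissues, was at 102, 74.6 and 109 CPM in HU libraries, 103, 97.3 and 90.3 CPM in Thy-Noc libraries and 100.1, 96.2 and 97.8 CPM in DMSO libraries. TNFAIP8, an inhibitor of cell death, was at 74.4, 68.0 and 99.2 CPM in HU libraries, 85.7, 82.3 and 99.6 CPM in Thy-Noc libraries and 83.8, 79.1 and 82.9 CPM in DMSO libraries. Groups overlapped in both, and the log2 fold changes of HU over DMSO were -0.04 ± 0.15 for SOD2 and -0.03 ± 0.16 for TNFAIP8 (SE), small errors beside the shifts of TNF or EBI3. CFLAR, which codes for the caspase-8 inhibitor FLIP, and GADD45B, a stress gene, belong to the genes described next.

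In 8 of the 37 listed genes the libraries of at least 1 group differed 10-fold or more after 0.5 CPM was added to each value: LTB, RELA, NFKBIB, NFKBIZ, TRAF2, BIRC2, CFLAR and GADD45B. Of the tested NF-kB genes, 7 of 34 (20.6%) varied in this way, against 1838 of the 11346 tested genes (16.2%). None of the 6 genes that rose did, which could be foreseen, because a wide spread within a group enlarges the error of the test. TRAF2, the adaptor that recruits BIRC2 and BIRC3, was at 47.9, 60.3 and 0.229 CPM in HU libraries, 62.8, 66.2 and 71.5 CPM in Thy-Noc libraries and 67.3, 70.2 and 71.5 CPM in DMSO libraries. Here HU replicate 3, with a count of 24, stood apart, as it did in RELA, and the remaining HU libraries were slightly below the others. BIRC2, a ubiquitin ligase that degrades NIK, was at 0.367, 1.05 and 2.34 CPM in HU libraries, 41.2, 0.947 and 0.300 CPM in Thy-Noc libraries and 1.81, 1.14 and 1.45 CPM in DMSO libraries. Thy-Noc replicate 1 was the exception there, and also in GADD45B, which was at 26.2 CPM in that library, 0.0260 and 0.249 CPM in the other Thy-Noc libraries, 0.418 to 0.696 CPM in HU libraries and 0.243 to 1.53 CPM in DMSO libraries. CFLAR was at 9.29, 28.4 and 1.71 CPM in HU libraries, 29.6, 0.571 and 2.48 CPM in Thy-Noc libraries and 1.22, 22.8 and 23.8 CPM in DMSO libraries, and NFKBIZ was at 1.75, 1.35 and 0.429 CPM in HU libraries, 1.07, 12.6 and 0.0311 CPM in Thy-Noc libraries and 0.609, 5.38 and 0.0382 CPM in DMSO libraries. High and low libraries of these genes were found in more than 1 group. The tested NF-kB genes had a median of 8.5 annotated transcripts per gene, against 7 over all tested genes.

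**Figure D3:**
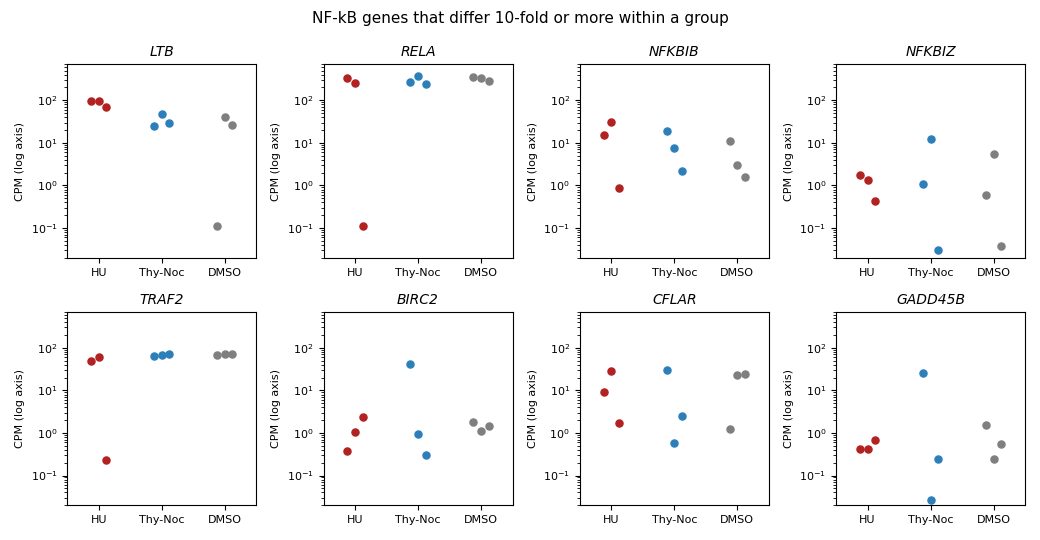
Points are CPM in single libraries on a log axis for the 8 NF-kB genes whose libraries differ 10-fold or more within a group, with HU, Thy-Noc and DMSO from left to right. In LTB, RELA and TRAF2 a single library lies far below 8 others, and in BIRC2 and GADD45B a single Thy-Noc library lies far above.

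Thy-Noc treatment gave no NF-kB call against DMSO. In edgeR, 0 of the 34 genes passed in either direction, where 0.0353% of all tested genes were called, 0.0264% higher and 0.00881% lower; DESeq2 and limma also called 0. At an unadjusted p under 0.05, 2 of the 34, TNFAIP3 and EBI3, were higher and 0 lower, against 4.49% of all genes, 2.45% higher and 2.04% lower. Every Thy-Noc library lay above every DMSO library in 4 of the 34, TNFAIP3, CYLD, EBI3 and CD40, against 5.18% of all genes, and in 0 of the 34 did all lie below, against 4.79%. TNFAIP3 passed the filter through 2 HU libraries and 1 Thy-Noc library and through no DMSO library. The log2 fold change of Thy-Noc over DMSO was 0.66 ± 0.24 for EBI3 (SE; adjusted p = 1, edgeR), 1.01 ± 0.50 for CYLD and 0.62 ± 0.28 for CD40. For TNF it was 0.07 ± 0.31, for NFKBIE -0.03 ± 0.22 and for TRAF1 0.42 ± 0.26 (SE). The median over the 34 genes was 0.18, against 0.01 over all tested genes, with 24 of the 34 above 0.

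HU was also compared directly with Thy-Noc. Of the 34 genes, 3 were higher in HU libraries in edgeR, TNF, NFKBIE and EBI3, and 0 were lower, where 1.75% of all tested genes were called, 0.696% higher and 1.06% lower. The log2 fold changes of HU over Thy-Noc were 2.05 ± 0.32 for TNF (SE; adjusted p = 0.0383), 1.57 ± 0.22 for NFKBIE (adjusted p = 0.0315) and 1.45 ± 0.24 for EBI3 (adjusted p = 0.0392). TRAF1 missed the threshold at 1.43 ± 0.26 (SE; adjusted p = 0.0502, edgeR), as did CD40 at 0.75 ± 0.28 (adjusted p = 0.207) and IL2RG at 0.48 ± 0.14 (adjusted p = 0.135). At an unadjusted p under 0.05, 12 of the 34 were higher and 0 lower, against 19.4% of all genes, 10.1% higher and 9.34% lower. Every HU library lay above every Thy-Noc library in 16 of the 34, against 12.9% of all genes, and below in 2, NFKB1 and TRAF2, against 12%; without BCL3 and TNFAIP3 it was 15 of 32 above and 2 below. BCL3 is among the 12 genes higher at an unadjusted p under 0.05. The median log2 fold change was 0.59 over the 34 genes, with BCL3 and TNFAIP3 included, and 0.01 over all tested genes. With only the 6 HU and Thy-Noc libraries none of the 3 was called, and with no filter TNF and EBI3 were not. The calls for TNF and NFKBIE ended when any 1 of the 9 libraries was left out (adjusted p 0.0507 to 0.122 for TNF and 0.0507 to 0.0972 for NFKBIE), and that for EBI3 ended without any library other than DMSO replicate 2 (adjusted p 0.0709 to 0.132). The comparisons share libraries, so these counts are not independent of those against DMSO.

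**Figure D4:**
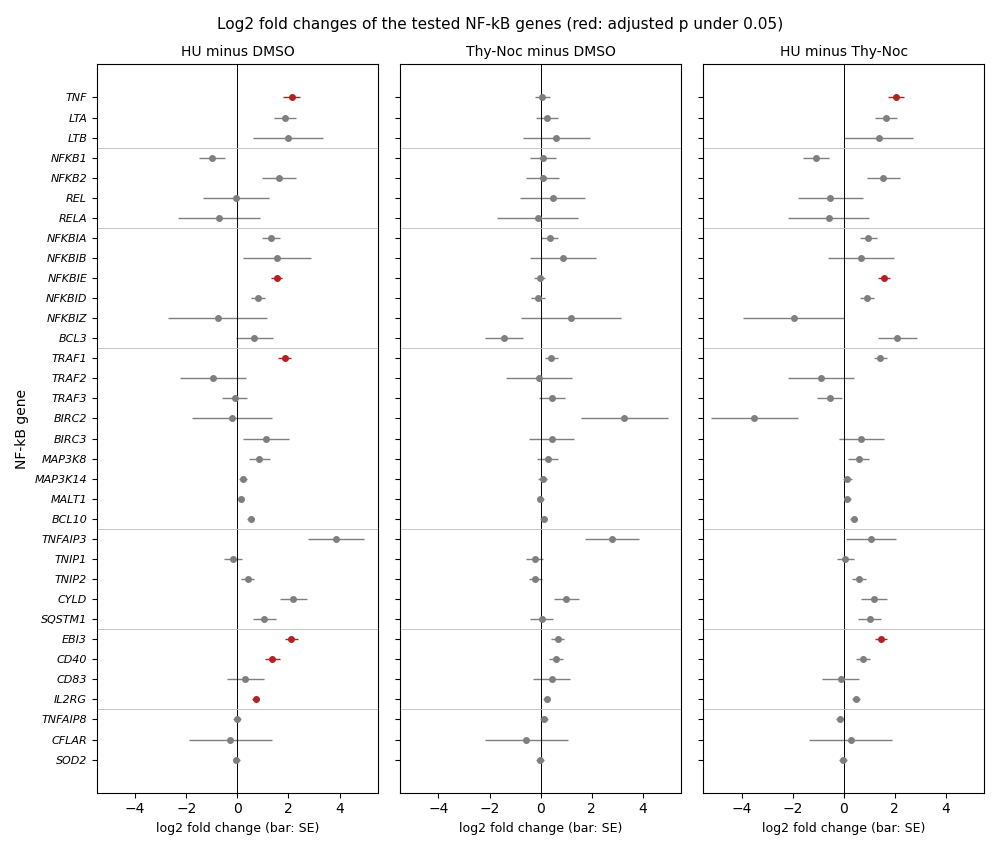
Points are log2 fold changes of the 34 tested NF-kB genes for HU minus DMSO, Thy-Noc minus DMSO and HU minus Thy-Noc, with the bar as 1 SE and red for an adjusted p under 0.05 in edgeR. Red points number 6 in the left panel, 0 in the middle and 3 on the right, and long bars mark genes whose libraries differ widely within a group, such as BIRC2 and RELA.

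Other genes of the pathway were described from lists of 73 names, of which 63 were listed and 60 tested. In HU against DMSO libraries, 8 rose and 1 fell, against 2% and 1.56% of all tested genes. Without adjustment, 26 were higher and 1 lower at p under 0.05, against 11.1% and 10.1% of all genes. The 26 include NINJ1, TLR7 and IRF4, which would not have passed the filter on low values without HU libraries. The median log2 fold change over the 60 tested genes was 0.80, against 0.02 over all genes. Of the 60, 9 would not have passed the filter on low values without the libraries of at least 1 group, NINJ1 and TRAF5 among them, and over the other 51 genes 7 rose and 0 fell. Most of the 8 were among 22 further target genes, of which 7 rose and 0 fell: CCR7, CCL22, CD80, BCL2A1, ZFP36, JUNB and NINJ1. CCR7, the receptor that guides lymphocytes into lymph nodes, was at 296, 165 and 246 CPM in HU libraries, 67.3, 57.1 and 53.8 CPM in Thy-Noc libraries and 38.6, 22.1 and 44.8 CPM in DMSO libraries. Every HU library was far above every other, with a log2 fold change over DMSO of 2.75 ± 0.32 (SE; adjusted p = 0.0159, edgeR) and over Thy-Noc of 1.99 ± 0.31 (adjusted p = 0.0383). The call against DMSO ended without HU replicate 1, HU replicate 3, DMSO replicate 1 or DMSO replicate 3, with adjusted p of 0.0503 to 0.0603, and the call against Thy-Noc held only without HU replicate 2 or DMSO replicate 2, with adjusted p of 0.0722 to 0.132 without each of the others. CCL22, a chemokine that draws T cells, was at 47.0, 19.8 and 45.3 CPM in HU libraries, 6.49, 15.0 and 9.83 CPM in Thy-Noc libraries and 6.63, 3.39 and 8.95 CPM in DMSO libraries. HU libraries lay above all others, with a log2 fold change over DMSO of 2.56 ± 0.53 (SE; adjusted p = 0.0483, edgeR), a call that ended without any library other than HU replicate 2 (adjusted p 0.0578 to 0.142). CD80, which co-stimulates T cells, was at 16.5, 22.5 and 23.3 CPM in HU libraries, 4.41, 9.60 and 6.06 CPM in Thy-Noc libraries and 6.50, 3.89 and 6.63 CPM in DMSO libraries. Here too the HU libraries stood clear of the others, with a log2 fold change over DMSO of 1.87 ± 0.36 (SE; adjusted p = 0.0419, edgeR), a call that held only without Thy-Noc replicate 1 or 2 (adjusted p 0.0692 to 0.131 without each of the others). JUNB, an AP-1 subunit, was at 100.2, 116 and 111 CPM in HU libraries, 42.5, 47.5 and 44.4 CPM in Thy-Noc libraries and 39.9, 40.3 and 43.1 CPM in DMSO libraries. Its libraries were close within each group, and the call of HU against DMSO (adjusted p = 0.00329, edgeR) held whichever library was left out. Against Thy-Noc the log2 fold change of JUNB was 1.28 ± 0.10 (SE, adjusted p = 0.0119, edgeR). Of the fits that left out a library, only that without Thy-Noc replicate 3 ended that call (adjusted p = 0.0511). A fit with a replicate block also ended it (adjusted p = 0.0680). BCL2A1, a survival factor of the BCL2 family, was at 36.4, 21.0 and 27.1 CPM in HU libraries, 19.3, 13.1 and 9.96 CPM in Thy-Noc libraries and 10.8, 5.54 and 7.90 CPM in DMSO libraries. ZFP36, which speeds the decay of cytokine mRNAs, was at 45, 21.0 and 30.4 CPM in HU libraries, 8.95, 8.97 and 13.5 CPM in Thy-Noc libraries and 9.0, 10.4 and 11.4 CPM in DMSO libraries. HU libraries were above all others in both genes, but each call held in only 1 of 9 fits that left out a library, without Thy-Noc replicate 1 for BCL2A1 (adjusted p 0.0616 to 0.144 without each of the others) and without HU replicate 2 for ZFP36 (adjusted p 0.0545 to 0.139 without each of the others). With no filter CCL22, CD80, BCL2A1 and ZFP36 were not called against DMSO, nor CCR7 against Thy-Noc (adjusted p = 0.0543, edgeR). CCL22 was not called with total-count scaling. Against DMSO the replicate block ended the calls of CCR7, CCL22, CD80, BCL2A1 and ZFP36 (adjusted p 0.0551 to 0.112). A fit of only the 6 libraries compared ended the same calls (0.0592 to 0.0837). The call of CCR7 against Thy-Noc ended in both fits (0.0851 and 0.0810).

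The remaining pathway lists held few calls. Among 9 tested kinases, PRKCB, a protein kinase C that acts below the B-cell receptor, rose, and the median log2 fold change of HU over DMSO was -0.27. PRKCB was at 79.3, 54.4 and 61.8 CPM in HU libraries, 38.7, 43.5 and 39.8 CPM in Thy-Noc libraries and 38.9, 38.9 and 36.5 CPM in DMSO libraries. The HU libraries were above all others, with a log2 fold change over DMSO of 0.78 ± 0.15 (SE; adjusted p = 0.0448, edgeR) that was not called without any library other than HU replicate 2 (adjusted p 0.0609 to 0.139). Among 17 tested adaptors and ubiquitin ligases 0 rose and 1 fell, TRAF5, an adaptor of TNF-family receptors; it, NINJ1, BCL2A1 and ZFP36 fell outside the rule for naming genes and are named after their values were seen. TRAF5 was at 0.202, 0.220 and 0.191 CPM in HU libraries, 0.219, 0.376 and 0.0414 CPM in Thy-Noc libraries and 2.07, 4.0 and 5.12 CPM in DMSO libraries. It passed the filter on low values only through DMSO libraries, which were far above the rest, and the log2 fold change over DMSO was -4.18 ± 0.76 for HU (SE; adjusted p = 0.0377, edgeR) and -4.14 ± 0.76 for Thy-Noc (adjusted p = 0.50). The HU call ended without any HU replicate or Thy-Noc replicate 1, with adjusted p of 0.0564 to 0.123, and without a DMSO replicate TRAF5 was too low to test. NINJ1, a target that codes for a membrane protein, passed only through HU libraries, on CPM taken before scaling between libraries, and was at 1.29, 0.998 and 1.53 CPM in HU libraries, 0.328, 0.208 and 0.476 CPM in Thy-Noc libraries and 0.190, 0.233 and 0.216 CPM in DMSO libraries. Its call against DMSO (adjusted p = 0.0222, edgeR) ended without any DMSO replicate (0.0796 to 0.0840), and its call against Thy-Noc (adjusted p = 0.0470) ended without any Thy-Noc or DMSO replicate (0.0809 to 0.123); without an HU replicate it was too low to test. With no filter neither TRAF5 nor PRKCB was called, nor NINJ1 against Thy-Noc (adjusted p = 0.0711, edgeR). The replicate block ended the HU calls of TRAF5, PRKCB and NINJ1 against DMSO (0.0652 to 0.106) and that of NINJ1 against Thy-Noc (0.102). With only the 6 libraries compared, PRKCB against DMSO (0.0956) and NINJ1 against Thy-Noc (0.150) were not called. Median-of-ratios scaling ended the call of NINJ1 against Thy-Noc (0.0503). Of 12 tested receptors 0 changed in edgeR. For HU against DMSO, 4 were higher and 0 lower at an unadjusted p under 0.05, against 11.1% and 10.1% of all genes. Of these 4, TLR7 would not have passed the filter on low values without HU libraries. In Thy-Noc against DMSO libraries, 0 of the 60 changed in edgeR, against 0.0353% of all tested genes. There 1 was higher and 2 lower at an unadjusted p under 0.05, against 2.45% and 2.04%, and the median was 0.21, against 0.01. The 2 lower, RIPK1 and TRAF5, would not have passed the filter without DMSO libraries. In HU against Thy-Noc libraries 3 rose, CCR7, JUNB and NINJ1, against 0.696% of all tested genes, with a median of 0.67, against 0.01. Over the 51 genes that did not need the libraries of any 1 group to pass the filter, 2 rose and 0 fell. The medians of 0.21 and 0.67 include the other 9 genes, NINJ1 among them.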

How the data were processed

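RNA from 9 Raji libraries, 3 for each treatment, was measured by sequencing. The authors deposited expected counts, that is, whole numbers for 15436 genes; the table's name calls them CPM, but their totals differ between libraries, from 74940755 to 110485145. No value is 0, and 274 genes stand at 1 in all 9 libraries. Per the submitters' processing notes the tools were FastQC, Trim Galore, STAR and DESeq2, with the build GRCh38; the sources used here do not give how reads were counted. No source states whether counting used strand, so the 12 NF-kB genes that overlap another listed gene, among them RELA, NFKBIB, TRAF2, MAP3K14, MALT1, TNFAIP3, SQSTM1, IL2RG and SOD2, are uncertain. Identifiers matched names for 15393 genes, and coordinates came from GENCODE 29 on GRCh38.

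The filter on low values asked for 1 CPM or more, from plain library totals, in 3 libraries or more and left 11346 genes, with a median count of 1187. In R 4.3.3, edgeR 4.0.16 fitted a quasi-likelihood model with the treatment as its single term to all 9 libraries after TMM scaling, leaving 6 residual degrees of freedom. Tests were two-sided, with p-values adjusted by Benjamini-Hochberg over the 11346 genes and a threshold of 0.05. The SE of a log2 fold change was derived from the test, as its absolute value divided by the square root of the F statistic. Limma had been planned for CPM values; since the values were counts, edgeR took its place and limma 3.58.1 on log2(CPM + 0.5), with pseudocounts of 0.1 and 1 as well, became an alternative. Other alternatives were DESeq2 1.42.0, other scalings and filters, a replicate block, a fit of 6 libraries, genes with 10-fold jumps left out, and each library left out in turn. The scripts were tested on simulated data. Counts of replicates differed far beyond sampling noise (chi-square 930 to 1230 per degree of freedom), so none repeats another of its group. NF-kB genes and lists were chosen with earlier results of these data known. All NF-kB genes are named. Of each other pathway list, the rule named up to 3 called genes per comparison and direction, those with the largest change among genes with a mean of at least 2 CPM. Some genes of the marker and pathway lists are not reported here.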

Additional observations from a re-analysis of the deposited data

How the results depend on the processing

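Of the 34 NF-kB genes tested in edgeR, 6 were called higher in HU than in DMSO libraries, 3 in HU than in Thy-Noc libraries and 0 in Thy-Noc than in DMSO libraries, and none was called lower under any alternative. In HU against DMSO the number higher was 12 in DESeq2, which added LTA, NFKBIA, NFKBID, BCL10, TNFAIP3 and CYLD, 1 with only the 6 libraries compared, 4 with no filter, 5 with median-of-ratios scaling, and 0 to 4 with each library left out. In HU against Thy-Noc it was 9 in DESeq2, 1 with no filter, 0 with only the 6 libraries and 0 to 2 with each library left out. Among the genes that DESeq2 added in HU against DMSO, TNFAIP3 would not have passed the filter on low values without HU libraries. Whether replicate numbers pair the samples is not given by the labels and was not settled by the values. Deviations of same-numbered libraries correlated at -0.04 to 0.04. Every library correlated best with its own number in HU against Thy-Noc but not in the other comparisons. The fit with a replicate block called 0 NF-kB genes in each comparison. Over the table it called 9, 0 and 0 genes in HU against DMSO, Thy-Noc against DMSO and HU against Thy-Noc. All genes called in HU against DMSO, 404, became 220 with no filter, 2135 in DESeq2, 51 with only the 6 libraries, 716 without unsteady genes and 21 to 318 with each library left out. Those in Thy-Noc against DMSO, 4, became 179 in DESeq2, 12, 7 and 12 in limma with pseudocounts of 0.5, 0.1 and 1, and 5 to 13 with each library left out. Those in HU against Thy-Noc, 199, became 64 with no filter, 313 with a filter at 5 CPM, 1826 in DESeq2, 326, 311 and 346 in limma with pseudocounts of 0.5, 0.1 and 1, 18 with only the 6 libraries, 471 without unsteady genes and 1 to 103 with each library left out. The causes were not tested. The called NF-kB genes kept their direction in all 20 alternatives. Signs changed under some alternative in 9 of the tested NF-kB genes in HU against DMSO, 19 in Thy-Noc against DMSO and 10 in HU against Thy-Noc, none of them called in that comparison. Among those whose fold changes are given, for REL HU over DMSO was 0.016 with total-count scaling and -1.84 to 0.48 with each library left out, Thy-Noc over DMSO was -0.25 in limma with a pseudocount of 0.1 and -0.61 with the replicate block, and HU over Thy-Noc was -2.31 to 0.016 with each library left out. With each library left out, Thy-Noc over DMSO was -0.27 to 0.69 for NFKB1, -0.33 to 1.03 for NFKB2, -0.29 to 0.12 for NFKBIE, -0.17 to 0.24 for TNF and -0.30 to 0.0077 for RELA. Total-count scaling moved the median of all genes to 0.12 in HU over DMSO and 0.16 in HU over Thy-Noc.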
